A study of Mus musculus with 12 samples.

Results

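A set of 7 genes of differentiated MC3T3-E1 cells is described here, Inmt, Flrt1, Klhl33, Dpep1, Uaca, Fap and Fam102a. They were picked from the 56691 genes of the count table because they differed from control with 25-hydroxyvitamin D (25(OH)D) and still differed clearly when the compound ZK191784 was given with it. The choice used the values of the control, 25(OH)D and 25(OH)D plus ZK191784 libraries and no numeric threshold. Levels and changes among those 3 groups are therefore given as a description without a test. The 25(OH)D plus BGP libraries took no part in the choice, and the 7 genes are tested in comparisons with these alone. All 7 genes had a row of their own and passed the low-count filter, which left 14394 genes.

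MC3T3-E1 is an established osteoblast-lineage line from mouse calvaria, labelled wild type. The cells of all 12 libraries, controls included, were kept in osteogenic medium with 10 mM beta-glycerophosphate (BGP, a donor of phosphate), 50 µg/ml ascorbic acid and 0.1 µM dexamethasone, and were harvested at day 28. The 4 groups of 3 libraries were a control, for which the labels name no vehicle, and 3 groups treated for 24 h from day 27. All of these received 25(OH)D at 100 µM, the first group alone, the next with 4 mM of added BGP and the last with ZK191784 at 100 µM. No group received ZK191784 or added BGP without 25(OH)D. The dose unit is as labelled and could not be checked. The labels do not say whether the replicates were separate cultures, so p-values reflect no more than the spread from library to library, which may be technical.

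25(OH)D is the circulating form of vitamin D. A hydroxylase turns it into the active hormone, which binds the vitamin D receptor. The receptor pairs with a retinoid X receptor on DNA and raises or lowers the transcription of target genes, many of them in mineral handling. ZK191784 is known from other work as an antagonist of this receptor in the intestine. The 7 genes belong to no single pathway. They encode a methyltransferase (Inmt), an adhesion receptor (Flrt1), a kelch-repeat protein (Klhl33), 2 cell surface peptidases (Dpep1 and Fap), a protein linked to apoptosis (Uaca) and a protein known from osteoclast formation (Fam102a).

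The sequences before the annotated starts of Inmt and Fam102a are shown, because these were the gene with no control counts and the only gene of the 7 that was lower with 25(OH)D. Each is the 250 bases upstream, 5′ to 3′ on the gene's strand, from RefSeq on GRCm38.p6, which is not the mm39 build named for the counts. Inmt lies at chr6:55174991-55175240 on the minus strand and Fam102a at chr2:32535109-32535358 on the plus strand. Capitals mark TATAAA in Inmt, and CCAAT and GGGCGG, on either strand, in Fam102a.
Inmt: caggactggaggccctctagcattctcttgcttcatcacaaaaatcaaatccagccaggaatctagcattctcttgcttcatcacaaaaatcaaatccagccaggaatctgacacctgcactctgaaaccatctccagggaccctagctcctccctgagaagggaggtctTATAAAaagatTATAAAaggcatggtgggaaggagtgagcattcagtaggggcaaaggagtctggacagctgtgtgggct
Fam102a: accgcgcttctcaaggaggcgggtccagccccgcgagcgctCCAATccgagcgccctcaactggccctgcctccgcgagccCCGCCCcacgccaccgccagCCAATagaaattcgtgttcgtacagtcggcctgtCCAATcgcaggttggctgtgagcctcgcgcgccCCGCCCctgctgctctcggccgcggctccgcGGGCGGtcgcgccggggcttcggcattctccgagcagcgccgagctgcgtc

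The Inmt window held 2 matches of TATAAA, a motif found on either strand in 12.4% of 32851 RefSeq windows of this length, and its GC content was 48%. The Fam102a window held 3 matches of CCAAT and 3 of GGGCGG, which occur in 33.8% and 32.7% of the windows, and its GC content was 72%. The receptor's half-site AGGTCA, searched on both strands without regard to overlaps and found in 14% of windows, had 1 match in 1 of the 2 Klhl33 windows and none in those of Inmt, Dpep1, Uaca and Fam102a. The full DR3 consensus of the vitamin D response element, in 0.0396% of windows, had no match in any of these 6 windows, which says only that these letters are not there. No windows of Flrt1 and Fap were matched.

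Library totals ran from 3318723 to 5170980 counts. The osteoblast and osteocyte markers were all measured, 13 of 13, and summed to 124068 to 138975 CPM (counts scaled to a library of standard size) in control, 21308 to 23985 with 25(OH)D, 17846 to 21238 with added BGP and 63342 to 74025 with ZK191784. Most of this sum came from Sparc, Col1a1, Col1a2 and Ibsp, and the markers did not all go the same way: the mean of Col1a1 was 27006 CPM in control and 5990 with 25(OH)D, that of Alpl 25.2 and 48.1 CPM. Markers of other cell types were lower in sum. Those of adipocytes summed to 8.63 to 9.99 CPM in control and 1.58 to 6.15 with 25(OH)D. With added BGP they summed to 3.37 to 4.50 and with ZK191784 to 6.99 to 9.42. Only 1 of the 8 passed the filter, Fabp4, with means of 5.86, 0.882, 0.845 and 4.39 CPM in the same order. Adipoq was higher with 25(OH)D, at 0.704 CPM against 0.0799 CPM in control. Chondrocyte markers, 2 of 7 of which passed the filter, summed to 100.2 to 245 CPM in control and 69.7 to 152 with 25(OH)D. With added BGP they summed to 65.9 to 119.9 and with ZK191784 to 87.8 to 183. The largest part came from Sox9, with means of 122, 109, 92.4 and 111 CPM in the same order. Col2a1, a cartilage collagen gene, had means of 31.7, 1.21, 1.87 and 19.9 CPM. The other chondrocyte markers were low in every group and did not all go the same way. Matn3 had means of 0.317, 1.88, 1.75 and 0.936 CPM, and Comp of 1.29, 0.764, 0.558 and 1.64. Muscle markers, led by Acta1, summed to between 30.6 and 94.7 CPM and endothelial markers, led by Pecam1, to between 19.0 and 72.4 CPM over all libraries, with overlap of all groups, and epithelial markers to at most 8.39 CPM. The part of the osteoblast, adipocyte and chondrocyte markers in the members' values was not tested. Macrophage and osteoclast markers, 6 of 8 of which passed the filter, summed to 384 to 588 CPM in control, 325 to 456 with 25(OH)D, 318 to 496 with added BGP and 349 to 506 with ZK191784, so all groups overlapped. Within groups the libraries differed in the log2 ratio of ribosomal protein gene counts to counts of pseudogenes and Gm-numbered genes. It ran from −1.97 to −0.77 in control, −1.94 to −0.65 with 25(OH)D, −1.85 to −0.64 with added BGP and −1.77 to −0.99 with ZK191784.

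CPM below are scaled by TMM factors and given for libraries 1, 2 and 3 in that order. The share undone is the part of the difference between 25(OH)D and control that was gone with ZK191784, so that 0% means that the change was left in full, 100% that it was gone, and a value below 0% that the gene moved further from control. It was computed on the fitted log2 fold changes, on log2 CPM with a prior count of 2, and on linear CPM. Its SE, an approximation from the spread of the 3 libraries per group, is given with the shares from log2 CPM and from linear CPM.

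Inmt encodes an indolethylamine N-methyltransferase, which moves methyl groups from S-adenosylmethionine to small amines such as tryptamine. It had 0 counts in all 3 control libraries. With 25(OH)D it stood at 1006, 1013 and 794 CPM, with added BGP at 645, 959 and 715, and with ZK191784 at 61.4, 70.6 and 41.5. The libraries with ZK191784 were all far below the other treated groups and all above control. Taking 3 counts in the whole control group as a floor, Inmt was at least 4109-fold higher with 25(OH)D and at least 251-fold higher with ZK191784 added, on 10970 and 784 counts. Its mean was 938 ± 124 CPM without ZK191784 and 57.9 ± 14.9 CPM with it (mean ± SD, n = 3). In CPM 93.8% ± 1.03 (SE) of the change was undone, which goes against a description of Inmt as left in place. On a log2 scale the share depends on the value assumed for control, which had no counts. It was 26.8% in the fit, 33.6% against the floor of 3 counts in the group and 36.7% ± 2.17 on log2 CPM with a prior count of 2 per library. Inmt was thus far from control and far from 25(OH)D alone.

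Flrt1 encodes a transmembrane protein with leucine-rich repeats that binds latrophilin and UNC5 receptors in cell adhesion and guidance. It stood at 0, 1.69 and 0.714 CPM in control, on 11 counts in all. With 25(OH)D it reached 31.0, 34.5 and 21.7 CPM, and with ZK191784 22.1, 20.7 and 17.8 CPM. All treated libraries were above all controls, and the groups with and without ZK191784 overlapped. Flrt1 differed from control by 5.08 ± 0.52 (SE) on the log2 scale with 25(OH)D and by 4.56 ± 0.52 with ZK191784. The share undone was 10.3% on fitted log2 fold changes (10.3% ± 4.41 on log2 CPM), between 7.48% and 13.3% when any 1 library was left out, and 31.2% ± 10.3 in CPM. Among the 6 members that moved back towards control on the log2 scale, this was the lowest share.

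Klhl33 encodes a kelch-like protein, of a family whose members often bring substrates to CUL3 ubiquitin ligases. It stood at 62.3, 73.3 and 83.7 CPM in control, 845, 763 and 564 with 25(OH)D, and 434, 353 and 306 with ZK191784. The 3 groups did not overlap, and ZK191784 libraries lay between the others. The log2 difference from control was 3.31 ± 0.24 with 25(OH)D and 2.32 ± 0.23 with ZK191784. Of the change 30.0% was undone on fitted log2 fold changes, 29.9% ± 5.92 on log2 CPM and 55.3% ± 8.15 in linear CPM.

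Dpep1 encodes a membrane dipeptidase that splits cysteinylglycine and leukotriene D4. Control libraries stood at 69.1, 104 and 58.5 CPM, 25(OH)D libraries at 440, 542 and 562, and ZK191784 libraries at 262, 263 and 275. The last group was tight, with an SD of 7.43 CPM around 266, and overlapped neither of the others. Log2 differences from control were 2.73 ± 0.21 with 25(OH)D and 1.78 ± 0.20 with ZK191784. The share undone was 34.7% on fitted log2 fold changes, 34.0% ± 4.10 on log2 CPM and 56.7% ± 4.27 in linear CPM.

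Uaca encodes a coiled-coil and ankyrin-repeat protein, also called nucling, that has been linked to the apoptosome. It stood at 52.8, 60.1 and 56.1 CPM in control, 274, 305 and 258 with 25(OH)D, and 123, 137 and 141 with ZK191784. The groups were far apart for their spread. The log2 difference from control was 2.31 ± 0.13 with 25(OH)D and 1.25 ± 0.13 with ZK191784. Of the members, Uaca had the largest share undone on the log2 scale, 46.0% from fitted fold changes and 46.1% ± 3.26 from log2 CPM, and 65.3% ± 3.32 was undone in linear CPM. In CPM the part undone was larger than the part left for Uaca, as it was for Inmt, Klhl33 and Dpep1.

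Fap encodes fibroblast activation protein, a serine protease of the cell surface that cuts after proline. It was the member whose mean moved further from control with ZK191784. Control libraries stood at 40.0, 47.4 and 55.9 CPM and 25(OH)D libraries at 109, 106 and 63.1. With ZK191784 they reached 202, 170 and 142 CPM, above every library of the other groups. Library 3 of 25(OH)D was close to the highest control, while the other 2 stood clearly above. Log2 differences from control were 0.96 ± 0.22 with 25(OH)D and 1.84 ± 0.22 with ZK191784. The share undone was −92.7% on fitted log2 fold changes, between −124% and −57.2% when any 1 library was left out, and −98.9% ± 59.2 on log2 CPM. The wide error goes with the small change with 25(OH)D alone. The difference of 0.89 ± 0.21 between the groups with and without ZK191784 describes Fap better than a share. In that comparison Fap was not called under many of the alternatives, among them leaving out any 1 of the 25(OH)D libraries. They are listed in the closing part.

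Fam102a, also called early estrogen-induced gene 1, encodes a protein known from RANK signalling in osteoclast formation. It was the only member that was lower in treated cells. Control libraries stood at 628, 676 and 470 CPM, 25(OH)D libraries at 121, 143 and 149, and ZK191784 libraries at 174, 207 and 194. All ZK191784 libraries were above all 25(OH)D libraries, and far below control. Log2 differences from control were −2.10 ± 0.17 with 25(OH)D and −1.63 ± 0.17 with ZK191784. The share undone was 22.7% on fitted log2 fold changes, 22.9% ± 5.13 on log2 CPM and 11.9% ± 3.12 in linear CPM, so here the linear share was the smaller one.

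**Figure D1:**
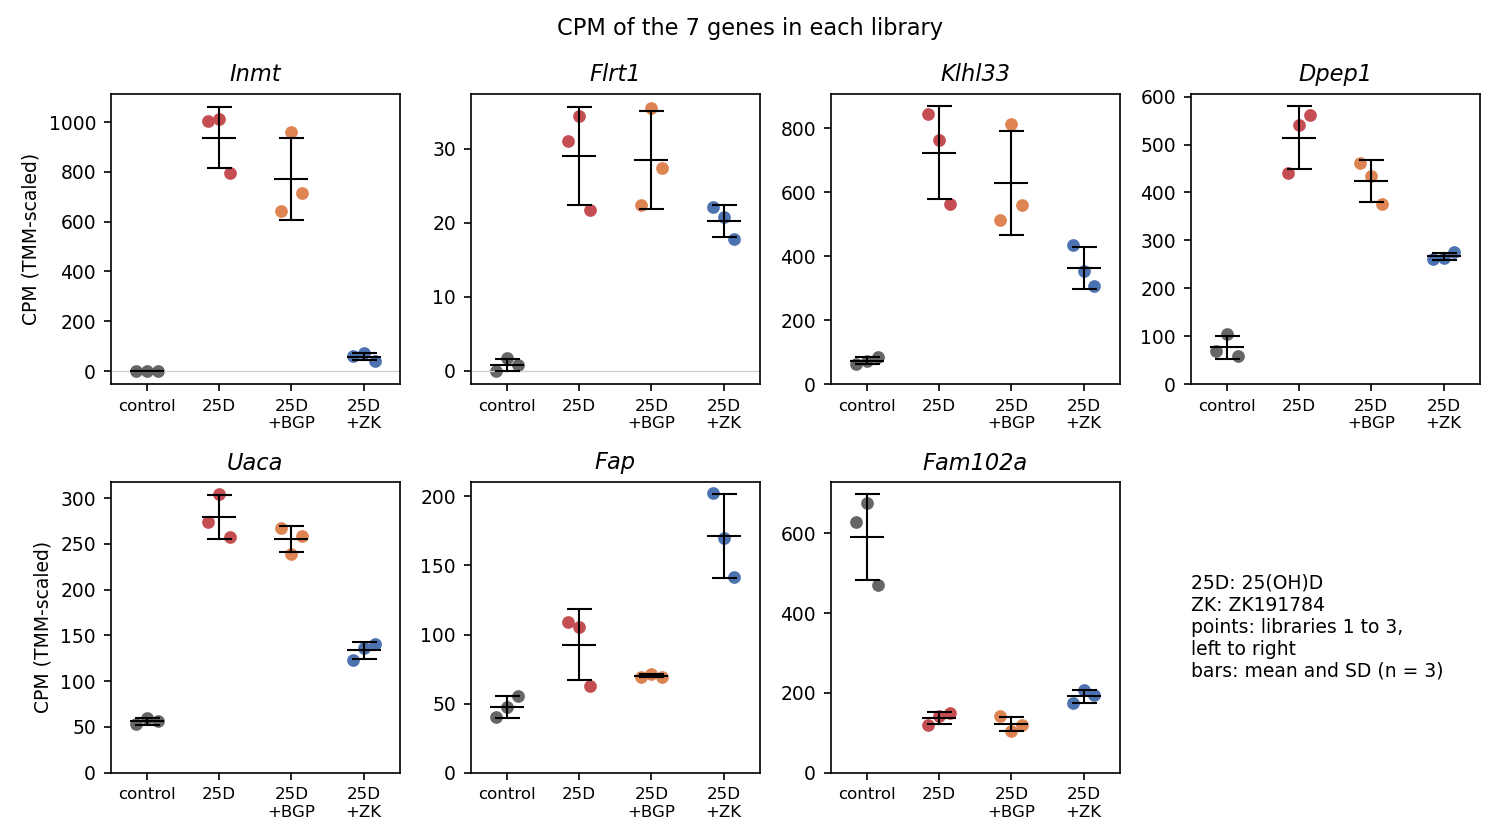
CPM (TMM-scaled, linear axis) of each of the 7 genes in every library of the 4 groups. Points are libraries 1 to 3 from left to right, and bars show the mean and SD (n = 3). Fap is highest with ZK191784, at 142 to 202 CPM, Fam102a is highest in control, and the other 5 genes are highest without ZK191784 in the treated groups.

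**Figure D2:**
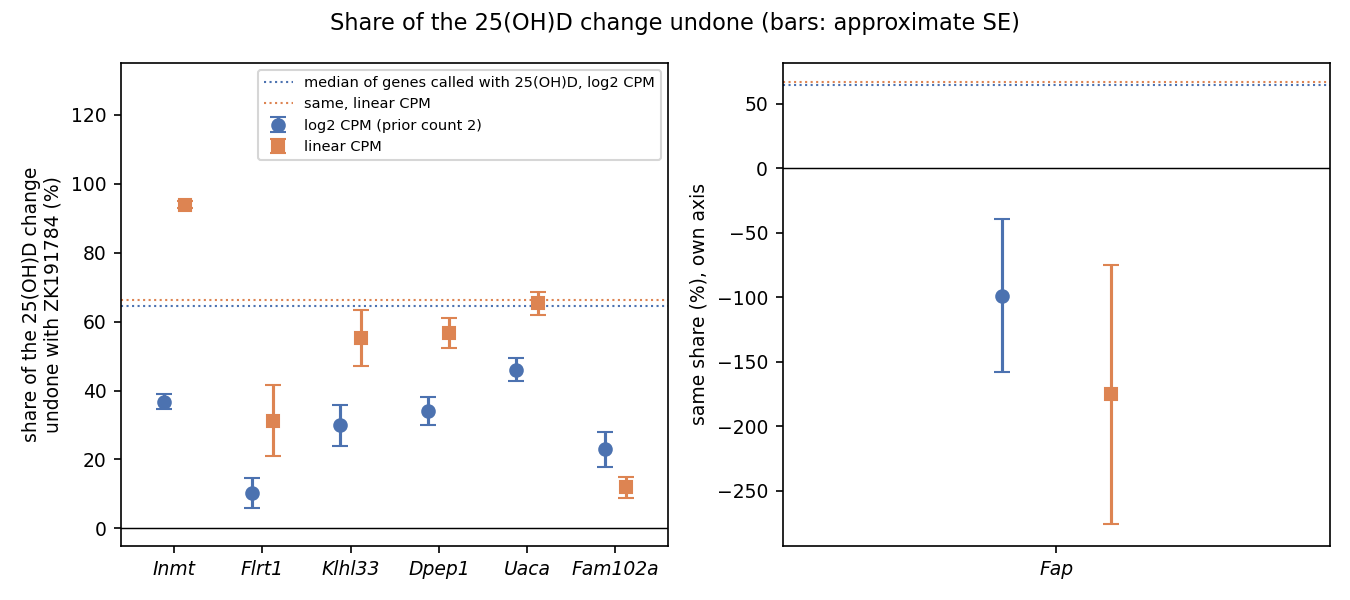
Share of the 25(OH)D change undone with ZK191784 in percent, on log2 CPM with a prior count of 2 (circles) and on linear CPM (squares). Bars are approximate SE from 3 libraries per group, the dotted lines mark the medians over the 1250 genes called with 25(OH)D, 64.4% on log2 CPM and 66.3% on linear CPM, and Fap has an axis of its own below 0%. Inmt is at 36.7% on this log2 scale, where its value depends on the prior count, and at 93.8% in CPM.

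Over all genes tested, 1250 differed between 25(OH)D and control (8.68%, edgeR quasi-likelihood, Benjamini-Hochberg adjusted p under 0.05) and 104 between 25(OH)D plus ZK191784 and control (0.723%). All 7 members were in both sets, which is what the choice asked for. Without 25(OH)D library 2 the first number was 813. The second was 40 or 47 without control library 1 or 2, and 48, 34 or 62 without ZK191784 library 1, 2 or 3. Fap left the first set when library 1 or 2 of control, or of 25(OH)D, was left out. Of the 1250 genes 95 were called in the same direction with ZK191784, and the 7 members are among these. On fitted log2 fold changes the median share undone was 64.2% over the 1250 genes (quartiles 47.5% and 78.2%) and 42.2% over the 95. Both fold changes behind a share use the same control libraries, here as in the members. The 25(OH)D libraries enter both the change and its undone part. Of the 1250 genes 2.88% had a lower share than Flrt1, 5.76% than Fam102a, 9.45% than Klhl33, 11.6% than Dpep1 and 23.3% than Uaca. For Inmt it was 8.01%, with a share that rests on the value assumed for control. None had a lower share than Fap. The choice asked for genes that still differed with ZK191784, which favours low shares. These ranks are therefore a description and no support for the choice. There were 20 of the 1250 genes, and 8 of the 95, with a share below 0%, and Fap is 1 of them.

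**Figure D3:**
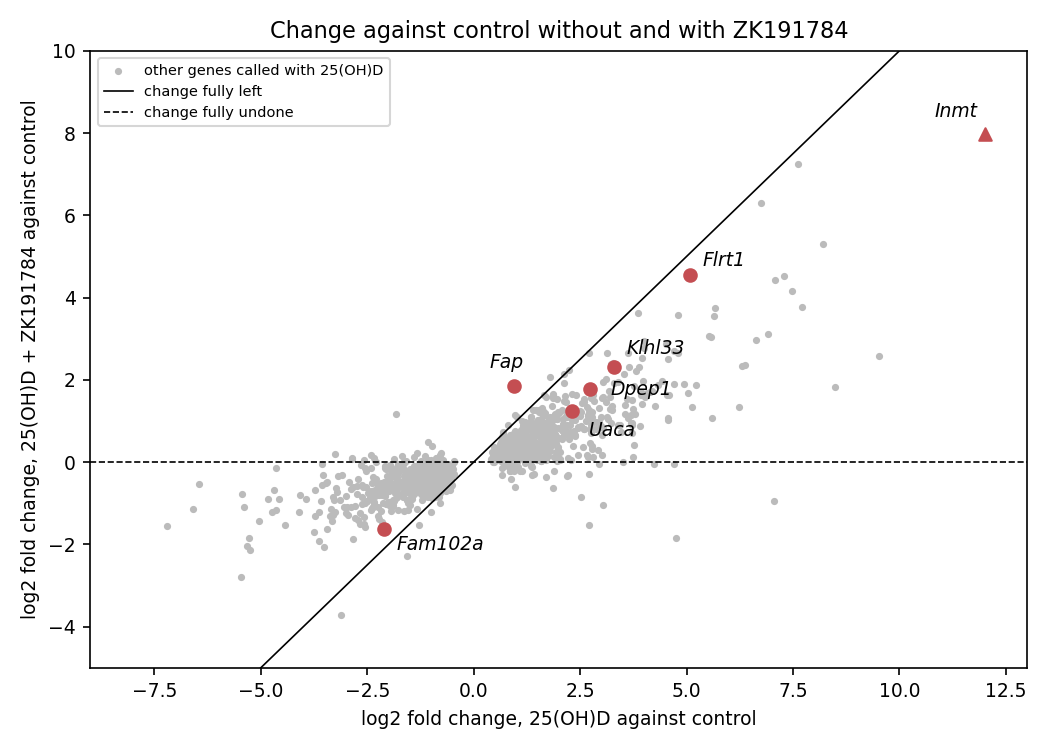
Log2 fold change against control with 25(OH)D (x axis) and with 25(OH)D plus ZK191784 (y axis) for the 1250 genes called with 25(OH)D. Members are large red points, with Inmt as a triangle at its values against the floor of 3 control counts, and grey points are the other genes. Fap lies above the solid line of equal change, Flrt1 just under it at 5.08 and 4.56, and Uaca nearest the dashed line of no change among the members.

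The group with 25(OH)D and added BGP gives treated libraries that the choice did not use, although it shares the control libraries with the other comparisons. Against control 5 members rose, where 3.9% of all genes tested did, Fam102a fell, as did 4.35% of all genes, and Fap did not pass. In all 6 of 7 members passed, and 8.25% of all genes. The members were chosen as differing from these same controls with 25(OH)D, which this group also received. Their passing was therefore likely in advance, and the counts are no independent support for the choice. Inmt rose at least 3417-fold against the floor of 3 control counts (adjusted p = 6.73e-08, edgeR). Flrt1 rose by 5.05 ± 0.52 on the log2 scale (adjusted p = 5.10e-05), from 0.800 ± 0.846 to 28.5 ± 6.62 CPM (n = 3). Klhl33 rose by 3.10 ± 0.23 (adjusted p = 4.25e-06), with libraries at 512, 814 and 559 CPM. Dpep1 rose by 2.45 ± 0.20 (9.74e-06), with libraries at 462, 434 and 375 CPM. Uaca rose by 2.18 ± 0.13 (6.60e-07), with libraries at 267, 239 and 259 CPM. These 5 genes were above control in 3 of 3 libraries. Fam102a fell by 2.28 (SE 0.18, adjusted p = 5.06e-06), with 141, 105 and 119 CPM, all under the lowest control.

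Fap stood at 69.6, 71.5 and 69.6 CPM with added BGP, above the highest control of 55.9 CPM in 3 of 3 libraries. Its log2 difference of 0.56 ± 0.22 did not pass (unadjusted p of 0.0237, edgeR adjusted p = 0.166). Ranges that did not overlap, as those of Fap did not, were found for 21% of all genes in this comparison. With the library ratio as a covariate Fap passed (0.47, adjusted p = 0.0146). Over all alternatives its adjusted p ran from 0.0146 to 0.452. In each of the 4 groups the library with the highest ratio also had the highest Fap level, and the same held for Klhl33. Dpep1, Uaca and Fam102a showed this in 0 of 4 groups, Flrt1 in 2 of 4 and Inmt in 1 of the 3 groups with counts. The part of the ratio in the Fap result was tested only by that covariate fit.

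Added BGP itself was compared with 25(OH)D alone. None of the 7 members passed, nor did any other gene (0%, edgeR), with 268 genes at an unadjusted p under 0.05 and 0 by DESeq2. CPM ranges overlapped for all 7, where 6.04% of all genes had ranges that did not. All 7 log2 differences were below 0, as were 53.4% of those of all genes, whose median was −0.022. The 25(OH)D libraries had been used in the choice of the members, so nothing is read from this shared sign. The largest was that of Fap, −0.40 (95% interval −0.86 to 0.06), followed by Inmt at −0.28 (−0.76 to 0.21) and Dpep1 at −0.28 (−0.70 to 0.14). Klhl33 differed by −0.20 (−0.67 to 0.26), Fam102a by −0.17 (−0.54 to 0.19) and Uaca by −0.13 (−0.40 to 0.14). Flrt1 differed by −0.03 (−0.83 to 0.77), and its sign changed with the libraries left out. Each had an adjusted p = 1. The intervals allow changes of more than 1.5-fold for Flrt1, Inmt, Klhl33, Dpep1 and Fap, so small effects of BGP on these genes would be missed.

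**Figure D4:**
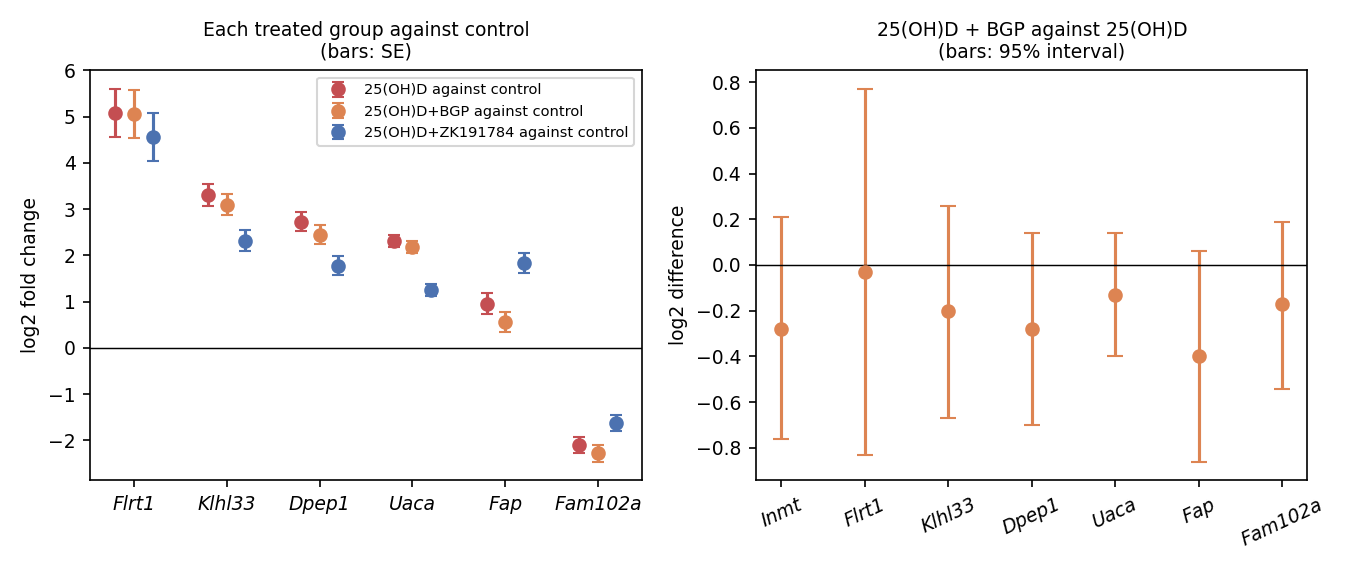
Left, log2 fold change against control of 6 members in the 3 treated groups, with SE bars (Inmt, with no control counts, is left out). Right, log2 difference of 25(OH)D with added BGP from 25(OH)D alone for all 7 members, with 95% intervals. On the left the third point is below the first for Flrt1, Klhl33, Dpep1 and Uaca, and on the right every interval spans 0.

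With the BGP group in place of 25(OH)D alone as the group without ZK191784, the share undone on the log2 scale was 9.78% for Flrt1, 25.4% for Klhl33, 27.3% for Dpep1, 42.8% for Uaca and 28.6% for Fam102a. In CPM it was 92.5% for Inmt. For Fap it was −232%, since the BGP group lay nearer to control. These values were read as a description, since the ZK191784 libraries had been used in the choice and the 2 groups also differ in BGP.

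Ordered by mean level, Inmt, Flrt1, Klhl33, Dpep1 and Uaca had the same sequence of groups, 25(OH)D, 25(OH)D plus BGP, 25(OH)D plus ZK191784, control. In each of the 5 genes the first 2 groups overlapped, and the other neighbours in the order did not. Over all genes tested, ranges did not overlap in 6.04% between 25(OH)D and BGP, 17.1% between BGP and ZK191784, 11.8% between ZK191784 and control, 17.6% between ZK191784 and 25(OH)D and 21.9% between 25(OH)D and control. For Fap the order was ZK191784, 25(OH)D, BGP, control, and only 25(OH)D and BGP overlapped. For Fam102a it was control, ZK191784, 25(OH)D, BGP, and again only the last 2 overlapped. Coefficients of variation within groups ran from 5.67% to 8.60% for Uaca, and for Fap from 1.58% with BGP to 27.7% with 25(OH)D.

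The genes most like each member were sought by Pearson's r of log2 CPM over the 12 libraries, which share the 4 treatments. Flrt1 was most like Vdr, the vitamin D receptor gene (r = 0.977), and also like Micall2 (0.972) and Klhl33 (0.962). Klhl33 was most like Gadd45a (0.993), Sesn1 (0.991) and Tiparp (0.990). Inmt was most like Orm3 (0.995), whose reads can be split with its paralogs, and was also like Tgm2 (0.994). For Dpep1 the closest were Nupr1 (0.982), Inmt (0.977) and Dstn (0.976), and for Uaca Tgm2 (0.995), Pitpnm2 (0.990) and Baz1b (0.990). Fam102a was most like Tceal9 (0.988), Klf4 (0.982) and Bmp4 (0.976). Fap had no close counterpart, with Decr1 (0.884), Pdia3 (0.884) and Fbln5 (0.883) nearest. Among the members themselves, r between Fap and the other 5 higher genes was between 0.34 and 0.64, while those 5 had r from 0.91 to 0.99 with each other.

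Genes related to each member were counted to see whether they followed it. Of 14 measured genes of small-molecule methyl transfer and S-adenosylmethionine supply, 1 rose and 1 fell with 25(OH)D (edgeR, against 8.68% of all genes). Between ZK191784 and control 0 of them were called, where 0.723% of all genes were. The one that rose with 25(OH)D was Bhmt (4.55 ± 0.84, adjusted p = 0.00389) and the one that fell was Gamt (−2.64 ± 0.60, adjusted p = 0.0144). Both were low, Bhmt at 0.230 CPM in control and 6.03 ± 3.92 (SD) with 25(OH)D, Gamt at 8.16 and 1.30 ± 0.983. With ZK191784 they stood at 0.498 and 7.76 CPM, and both were called against 25(OH)D alone (edgeR adjusted p = 0.0197 and 0.0336). Of 11 FLRT relatives and receptors 1 rose and 2 fell. Those with the smallest p were the receptor genes Unc5c (−2.79 ± 0.46, adjusted p = 0.00167) and Adgrl1 (−0.84 ± 0.16, adjusted p = 0.00483). Of 33 BTB-kelch and CUL3 genes 2 rose and 1 fell. Kbtbd11 rose with 25(OH)D (2.11 ± 0.41, adjusted p = 0.00552) and was also higher than control with ZK191784 (2.14 ± 0.41, adjusted p = 0.0331), and Klhl30 rose by 1.16 ± 0.26 (adjusted p = 0.0128).

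None of the 15 measured genes of dipeptidases, glutathione and cysteinyl leukotrienes was called with 25(OH)D, nor any of the 11 prolyl peptidases, where 8.68% of all genes were. Of 19 genes of mitochondrial apoptosis 2 rose, Bcl2l11 (1.43 ± 0.27, adjusted p = 0.00469) and Lgals3 (1.07 ± 0.24, adjusted p = 0.0138). Of 11 genes of the Fam102a family and RANK signalling 1 fell, Tnfrsf11b (−2.28 ± 0.46, adjusted p = 0.00725). Of 14 genes listed with the vitamin D receptor, its partners and metabolism 5 rose and 0 fell. Of the same 14 genes 3 were higher than control with ZK191784, where 0.723% of all genes were called. This list also held Spp1, which is counted in both numbers, as is Vdr. Beside the members, Vdr had an undone share of 2.38% and Spp1, which encodes osteopontin, one of 56.5%.

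Genes annotated within or closer than 2000 bases of a member could share its reads, as the strand setting of the counting is not given. Flrt1 overlaps or adjoins Macrod1, which stood at 6.91 ± 1.15 CPM in control, 7.03 ± 0.709 with 25(OH)D, 5.91 ± 0.559 with BGP and 9.70 ± 3.52 with ZK191784, and so did not follow Flrt1. Fam102a overlaps or adjoins Dpm2, at 15.1 ± 3.17, 25.4 ± 8.50, 25.3 ± 5.12 and 21.7 ± 5.37 CPM in the same order, which ran the other way. Gm33643, by Uaca, and 5730409K12Rik and Gm38621, by Flrt1, were not used here. No annotated gene lay that close to Inmt, Klhl33, Dpep1 or Fap. The neighbours were read from RefSeq on GRCm38.p6.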

How the data were processed

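Total RNA of 12 MC3T3-E1 samples was made into 3' mRNA-seq libraries (QuantSeq), per the labels. The values are raw counts per gene symbol as deposited by the authors. The submitters' processing notes name STAR 2.7.9a, featureCounts of Subread 2.0.3, DESeq2 1.38.2 and mm39, without their roles. The strand setting and annotation were not given in the labels. All 12 columns were matched to samples by their labels.

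Repeated symbols, 882 entries, were kept apart. Genes were filtered with filterByExpr (min.count 10, min.total.count 15) in edgeR 4.0.16 (R 4.3.3), which kept 99.4% of the counts, and scaled by TMM. A robust quasi-likelihood model with 1 coefficient per group was fitted to all 12 libraries, and p-values were adjusted (Benjamini-Hochberg) over all genes tested. Each SE is approximate, taken from the log2 fold change and its F statistic. Log2 fold changes carry a prior count of 0.125, and log2 CPM one of 2.

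The members and lists were chosen with earlier results of these data known. Named beside the members were up to 2 genes per related list, called with 25(OH)D at the smallest p, and the 3 genes most like each member with a mean log2 CPM of 1 or more, without Gm-numbered, clone and pseudogene names; 1 of these is not reported here. Alternatives were RLE scaling, DESeq2 1.42.0, no filter, a CPM filter, a replicate block, 2 groups alone, a library-ratio covariate and leaving out each library. The fit was tested on simulated data. Counting error for Inmt covers reads only, without molecular identifiers.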

Additional observations from a re-analysis of the deposited data

How the results depend on the processing

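In the comparison of 25(OH)D plus BGP with control, Inmt, Flrt1, Klhl33, Dpep1, Uaca and Fam102a kept their direction and their call under all 19 alternatives, with adjusted p up to 0.00341, and Fap was gained with the library ratio as a covariate (0.47). Against 25(OH)D alone no member was called under any of the 19. There the sign of Flrt1 turned, to 0.00 in the 2 groups alone and without BGP library 3, 0.02 without 25(OH)D library 1, and 0.12 without 25(OH)D library 2 or BGP library 1, within a leave-one-out range of −0.20 to 0.12. Fap lost its place among the genes called between 25(OH)D and control in the 2 groups alone and when library 1 or 2 of control, or library 1 or 2 of 25(OH)D, was left out. Between ZK191784 and 25(OH)D Fap was not called with the replicate block or in the 2 groups alone. The same held without control library 2, any 25(OH)D library, BGP library 1 or 3, or ZK191784 library 1 or 2. Klhl33 and Dpep1 also lost that call under some alternatives, and Inmt and Uaca under none. The choice of the members used the values of both these comparisons. Keeping or losing a call there is therefore a description and no support for any member.

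The number of genes called moved more. With the library ratio as a covariate it was 2678 for BGP against control, 6 for BGP against 25(OH)D, 2865 for 25(OH)D against control, 681 for ZK191784 against control and 1625 for ZK191784 against 25(OH)D. In the 2 groups alone it was 712, 763 and 42 for BGP, 25(OH)D and ZK191784 against control. DESeq2 gave 264 and 797 for ZK191784 against control and against 25(OH)D, where edgeR gave 104 and 508, and no low-count filter gave 220 for the first. When 1 library was left out the counts ran from 794 to 1210 for BGP against control, 813 to 1308 for 25(OH)D against control, 34 to 121 for ZK191784 against control and 269 to 566 for ZK191784 against 25(OH)D. The cause was not tested.

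Correlations of same-numbered libraries' deviations ran from −0.71 to 0.61, with 4 of 18 above 0.1, and so showed no common pairing. They cannot settle whether the replicate numbers pair the libraries, because same-numbered libraries also differed in the library ratio. With the replicate block 56 genes were called between ZK191784 and control and 334 between ZK191784 and 25(OH)D. The share undone moved beyond the spread between libraries on linear CPM for 6 members other than Fap, with a prior count of 2 for Inmt (36.7%), and with the BGP group as the reference for Dpep1 and Fap. In control Inmt had 0 counts and Flrt1 11, which limits the precision of their differences from it.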
